A study of Gallus gallus with 6 samples.

Results

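Leukocyte and interferon genes were examined in cultured chicken neural crest cells through 8 genes, which a set of array probes (a probe set) represented 20 times in all. The members were all probe sets whose platform annotation gave exactly 1 symbol equal to CD74, PTPRC, LCP1 or CSF1R, the 4 leukocyte genes, or to IFI27L2, EIF2AK2, IRF7 or TRIM25, the 4 interferon genes. They were 20 of 27168 probe sets with 1 symbol and 8 of 13009 genes. The 8 genes were chosen with earlier results of the same comparison known, so their levels and differences are given as descriptions and without a test. The 6 arrays fell into 2 groups of 3 cultures each, from embryos of Brown Leghorn background. In the first group (v-Myb) neural tubes of embryos at stages 10 to 13 were explanted into medium with a retrovirus for v-Myb-L3,4A-HAER, an oncoprotein that binds DNA and that 4-OH-tamoxifen makes active. In the other group (N118D) the virus carried v-Myb-L3,4A-N118D-HAER, which has a further point mutation in the DNA-binding domain. In both groups the explants were taken away after 3 days, leaving the cells that had migrated out, and 4-OH-tamoxifen at 200 nM was present in all cultures over a period of 4 hours. Every culture was therefore exposed to virus and to 4-OH-tamoxifen, and the comparison asks which transcripts depend on the point mutation in the DNA-binding domain. The labels name biological replicates but not whether each came from its own batch of embryos, so spreads are those between these cultures.

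Leukocytes share a small number of defining proteins. CD45, the product of PTPRC, is a phosphatase on the surface of nearly all of them, plastin-2, the product of LCP1, bundles their actin, the invariant chain CD74 escorts MHC class II molecules in antigen-presenting cells, and CSF1R is the receptor through which macrophages are maintained. Interferons, which cells release on infection, act through receptors, Janus kinases and IRF and STAT factors to switch on antiviral genes such as the kinase gene EIF2AK2. v-Myb itself was found in a bird retrovirus that transforms myelomonocytic cells, and the neural crest gives rise to pigment cells, peripheral nerves and glia but not to blood.

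Most markers of the labelled cell type were measured. SOX10, the neural crest and glial transcription factor, had a mean log2 level of 11.44 across v-Myb arrays and of 11.08 across N118D arrays, and the melanin synthesis gene DCT had 13.82 and 13.44. Of 23 neural crest and pigment cell genes with a probe set 20 reached the minimum for testing, which was a log2 level of at least 4 on at least 3 arrays. The crest gene SOX9 did not, at 2.08 to 2.46. Of 18 epithelial genes with a probe set 11 (61.1%) were tested as well, where 65.9% of all genes were. Whether the cultures held crest cells alone was not tested. The median of each array was near 3.1, so most probe sets lay below the minimum. MYB had 1 probe set, at 2.16 to 2.20 throughout, and whether it covers the part that v-Myb carries was not established. No probe set differed between the groups at an adjusted p of 0.05 in limma, neither higher nor lower (0% of 16526, 315 at an unadjusted p under 0.05, smallest adjusted p 0.9999).

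Of the 20 member probe sets 9, for 7 genes, reached the minimum for testing, and the other 11 stayed below 4 on every array, at 2.07 to 3.85. CSF1R had no probe set above the minimum. The level of a gene on the array depends on its probes, so levels are compared between arrays and not between genes. The v-Myb and N118D arrays did not overlap for 3 of the 9 probe sets, LCP1, IFI27L2 and 1 of 3 for CD74, where 5.74% of all tested probe sets did not overlap (2.69% with v-Myb higher and 3.05% with v-Myb lower). Because these genes were chosen with that contrast known, nothing is read from this count. In bulk cultures, fewer cells of a type and less RNA per cell cannot be told apart.

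**Figure D1:**
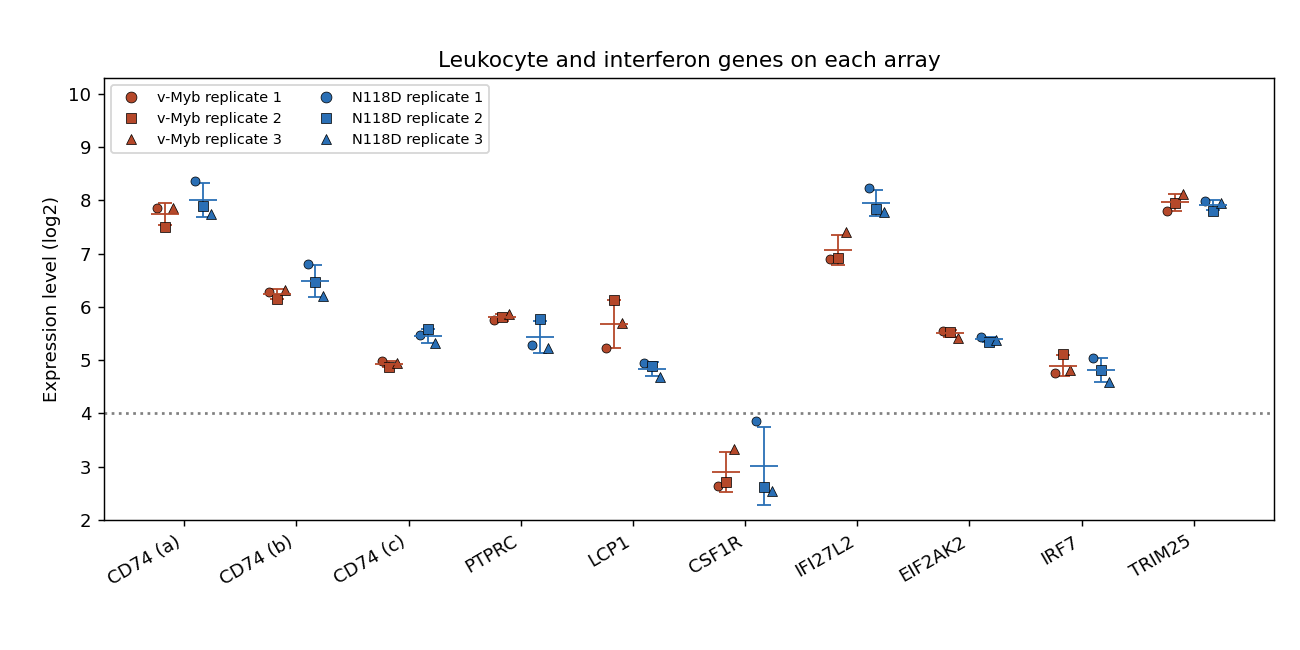
Log2 expression level of each member on each array, for the 9 tested probe sets and the 1 CSF1R probe set that varied, with means (long ticks) and SD (bars) of 3 arrays a group. CD74 is shown as its brightest (a), middle (b) and dimmest (c) probe set, and the dotted line marks the minimum of 4. LCP1 lies higher on every v-Myb array and IFI27L2 lower, while the other interferon genes overlap and CSF1R stays under 4.

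LCP1 stood higher on each v-Myb array than on any N118D array. Its brighter probe set was at 5.23, 6.13 and 5.69 in v-Myb replicates 1, 2 and 3, against 4.94, 4.88 and 4.68 in N118D replicates 1, 2 and 3. The v-Myb arrays ranged more widely than the N118D arrays, with v-Myb replicate 2 highest, and the gap between the lowest v-Myb and the highest N118D array was 0.29. The means were 5.68 ± 0.45 and 4.84 ± 0.13 (SD, n = 3 each), a difference of 0.85, or 1.80-fold. Without v-Myb replicate 2 the difference was 0.63, and without v-Myb replicate 1 it was 1.08. The second LCP1 probe set lay between 2.62 and 2.69 on all arrays and differed by 0.014.

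PTPRC, whose product marks leukocytes in general, was measured by 1 of its 3 probe sets. It was at 5.75, 5.81 and 5.87 on the v-Myb arrays, against 5.29, 5.78 and 5.24 on the N118D arrays. N118D replicate 2 lay among the v-Myb arrays, and the other 2 N118D arrays lay below. Averages of 5.81 ± 0.06 for v-Myb and 5.43 ± 0.30 for N118D (SD, n = 3 each) gave a difference of 0.38. Leaving out N118D replicate 2 made it 0.55, and leaving out N118D replicate 3 made it 0.28. The other PTPRC probe sets stayed at 3.20 to 3.38 and at 2.20 to 2.24.

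CD74 went the other way, with lower levels in v-Myb cultures on all 3 of its probe sets. On the brightest, the v-Myb arrays were at 7.86, 7.51 and 7.86 and the N118D arrays at 8.37, 7.89 and 7.76. The groups overlapped there, and the highest array was N118D replicate 1. The difference of -0.26 shrank to -0.079 without that array. The middle probe set followed the same order of arrays closely (r = 0.95 over 6 arrays, a description of 2 probe sets of 1 gene) and differed by -0.24, or -0.089 without N118D replicate 1. The dimmest probe set separated the groups, with 4.98, 4.87 and 4.94 on the v-Myb arrays and 5.47, 5.58 and 5.32 on the N118D arrays. v-Myb averaged 4.93 ± 0.05 and N118D 5.46 ± 0.13 (SD, n = 3 each). The difference was -0.53, and between -0.59 and -0.46 whichever array was left out. All 3 probe sets were lower in v-Myb, and 1 array set much of the size on the brighter pair.

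CSF1R, the macrophage receptor gene, was low throughout, and only 1 of its probe sets was not flat. All its values lay under the minimum, where dim probe sets crowd near a floor, so they are given as descriptions only. The 1 probe set that varied was at 2.64, 2.71 and 3.34 on the v-Myb arrays, against 3.85, 2.62 and 2.55 on the N118D arrays. N118D replicate 1 and v-Myb replicate 3 stood above the other 4 arrays, so 1 array of each group was high. The group means, 2.90 ± 0.38 and 3.01 ± 0.73 (SD, n = 3 each), differed by less than the spread within either group. The other 3 CSF1R probe sets varied by at most 0.12 between arrays, and on 1 of them the groups were 0.0076 apart, with v-Myb lower.

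The leukocyte members did not show a common pattern over the arrays. Correlations between members carry the contrast on which the genes were chosen, so they are given over 6 arrays as descriptions, for the brightest probe set of each gene unless another is named. PTPRC and LCP1 had a positive correlation (r = 0.69, rho = 0.77), which was 0.21 as deviations from the group means. Without the 2 arrays farthest from the median of PTPRC it was 0.53, and without those farthest from the median of LCP1 it was 0.63. CD74 had negative correlations with PTPRC (r = -0.48, rho = -0.086) and with LCP1 (r = -0.54, rho = -0.31), which were -0.18 and -0.24 as deviations from the group means. Without the 2 arrays farthest from the median of CD74 they turned to 0.94 and 0.51, so on this probe set both rest on 2 arrays. The dimmest CD74 probe set, on which the groups did not overlap, had r = -0.55 with PTPRC and r = -0.83 with LCP1, and these were -0.32 and -0.78 without the same 2 arrays. As deviations from the group means they were 0.77 and -0.14. The 3 CD74 probe sets thus gave different answers within the groups.

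Some genes with roles close to that of CSF1R were high on the same arrays, as were genes outside the lists. The macrophage and leukocyte genes given here were picked from their lists after the values had been seen, and have no test. Over the whole macrophage and granulocyte list, 14 probe sets ranged over at least 0.5. Of them 4 (28.6%) were highest on v-Myb replicate 2, 4 on v-Myb replicate 3, 4 on N118D replicate 1 and 2 (14.3%) on N118D replicate 3. The shares of all 8365 such probe sets on these arrays were 22.1%, 15.7%, 21.0% and 8.4%, so nothing is read from these counts. C1QB and C1QC encode chains of the complement protein C1q, which macrophages make, and SPI1 encodes PU.1, a transcription factor that myeloid cells need. C1QB was at 2.84, 3.16 and 4.22 on the v-Myb arrays and at 5.07, 3.29 and 3.02 on the N118D arrays on the brighter of 2 probe sets. C1QC was at 2.64, 2.65 and 3.91 on the v-Myb arrays, against 3.95, 2.67 and 2.69 on the N118D arrays. On both genes v-Myb replicate 3 and N118D replicate 1 stood apart from the other 4 arrays, and the groups overlapped.

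SPI1 was at 3.80 on N118D replicate 1, at 3.08 on v-Myb replicate 3 and at 2.85 to 2.90 on the rest. NCF4, a subunit of the phagocyte oxidase, had its highest levels on the same arrays, with 6.52 on N118D replicate 1, 6.01 on v-Myb replicate 3 and 5.10 to 5.90 on the others. Not every such probe set followed both arrays. A second C1QB probe set was at 3.79 on v-Myb replicate 3 alone and at 2.18 to 2.28 elsewhere. C1QA and CSF2RA, a receptor subunit for GM-CSF, were likewise highest on v-Myb replicate 3. C1QA was at 3.13 there and at 2.41 to 2.45 elsewhere, and CSF2RA at 3.59 and at 2.61 to 2.66. Only NCF4 among these genes reached the minimum for testing. Genes outside the lists also followed the varying CSF1R probe set closely. Among 3059 candidate probe sets the most like it were SQRDL, RXRA, FAM150A and KLF13 (r = 0.99 each). These candidates also held probe sets under the minimum, such as that of RXRA, at 2.42 to 3.68. The brighter C1QB probe set ranked 5, C1QC 12, SPI1 17 and NCF4 68. Other probe sets of the leukocyte lists ranked from 96 (CYBA) to 3006 (CD247, r = -0.75). The second C1QB probe set was at 662, CSF2RA at 680 and LCP1 at 1128. The highest correlations among so many probe sets are near 1 by selection, so nothing is read from these ranks. Whether the pattern was particular to macrophage genes was not tested.

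**Figure D2:**
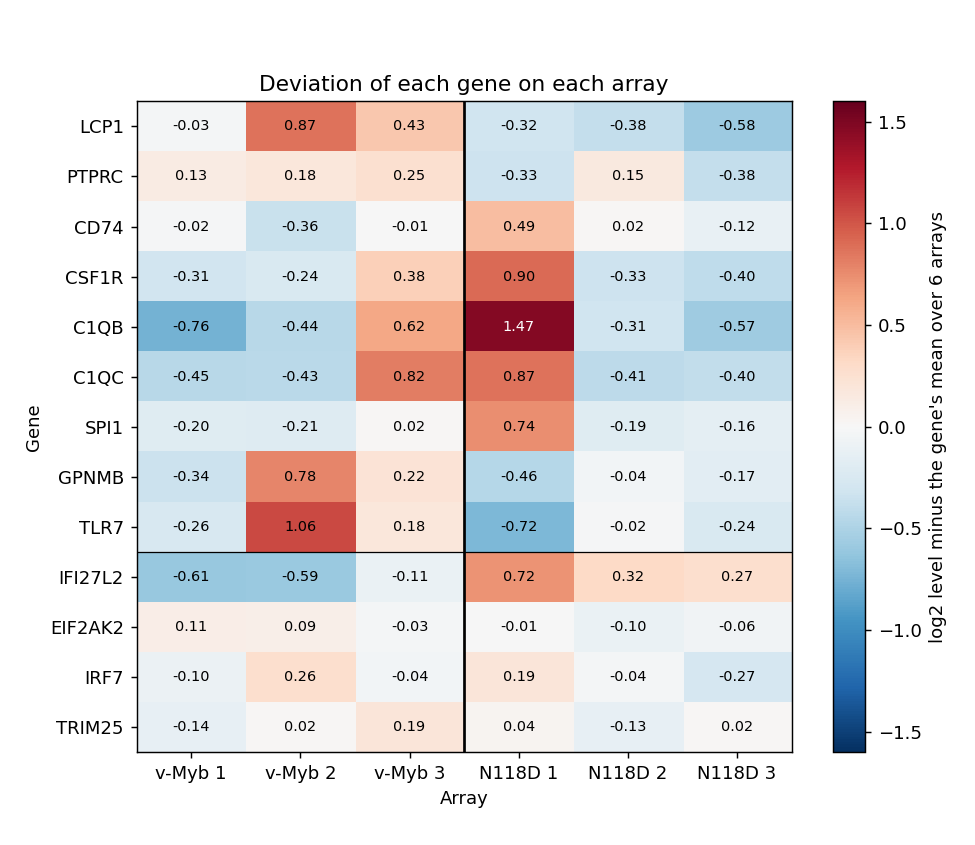
Log2 level minus the mean over the 6 arrays, with v-Myb arrays left of the thick line and N118D arrays right of it. Genes of the leukocyte lists and TLR7, a gene of the interferon sensor list, are above the thin line and the interferon members below it. C1QB, C1QC and SPI1 were picked after their values were seen, and C1QB is shown as its brighter probe set. C1QA, CSF2RA and the second C1QB probe set, which were high on v-Myb replicate 3 alone, are not shown. CSF1R, C1QB and C1QC share high values on v-Myb replicate 3 and N118D replicate 1, and LCP1, GPNMB and TLR7 are highest on v-Myb replicate 2.

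Most leukocyte genes gave no signal above the minimum. Of 93 genes with a probe set in 4 lists of leukocyte genes, 31 (33.3%) were tested, against 65.9% of all 13009 genes, and 60 of the 62 others stayed under 4 on every array. The T cell genes CD4 and LCK reached at most 2.23 and 2.07, and the B cell gene CD79B reached 2.36. The leukocyte integrin gene ITGB2 reached 3.36, the macrophage mannose receptor gene MRC1 2.41 and the lysozyme gene LYZ 2.11. Some genes of these lists that many cell types express were well measured and others were not. CTSB, a lysosomal protease gene, was at 13.13, 13.35 and 13.28 on the v-Myb arrays and 13.18, 13.17 and 13.22 on the N118D arrays. RFX5 and TAP1, of the antigen presentation list, did not exceed 3.19 and 2.12. A low level therefore does not tell a silent gene from a weak probe set.

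**Figure D3:**
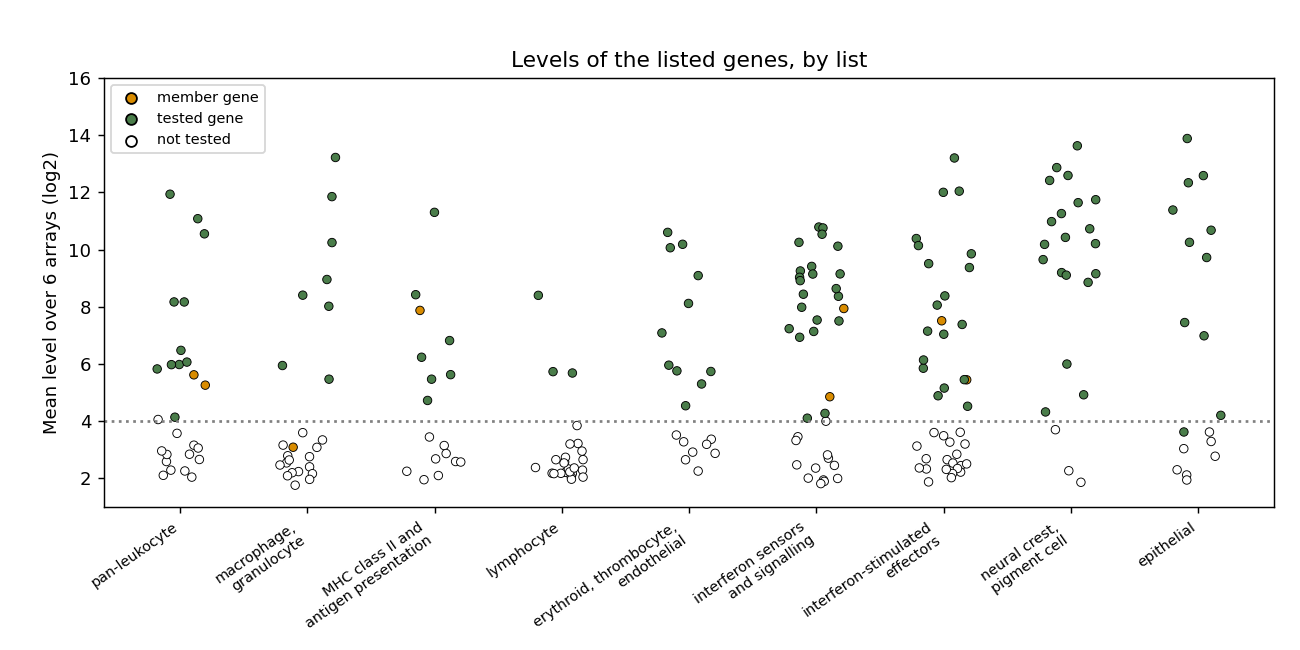
Mean log2 level over the 6 arrays of each listed gene with a probe set, by list, 1 probe set a gene, with members in orange, other tested genes in green and genes under the minimum open. The dotted line marks a level of 4. All but 3 of the 26 lymphocyte genes and 17 of the 25 macrophage and granulocyte genes were not tested, against 3 of the 23 neural crest and pigment cell genes.

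None of the tested genes in the 4 leukocyte lists passed limma in either direction over all probe sets, where 0% of all probe sets did. Median differences were 0.06 over 13 pan-leukocyte genes (10 above 0), 0.02 over 8 macrophage and granulocyte genes (5 above) and 0.04 over 8 antigen presentation genes (4 above). The median over all tested probe sets was -0.0018, with 49.2% above 0. The 3 lymphocyte genes had a median of -0.25, with 1 above 0; dropping v-Myb replicate 3 turned it to 0.28 and dropping v-Myb replicate 2 to 0.06.

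Among the pan-leukocyte genes, ARHGAP15, a Rac-regulating GTPase activator, differed by 0.32 with a standard error of 0.23, LAPTM5, a lysosomal membrane protein of blood cells, by 0.24 with 0.31, and RAC2, the blood cell Rac GTPase, by 0.14 with 0.16. ARHGAP15 was at 8.74 on v-Myb replicate 2 and at 7.82 to 8.42 on the other 5 arrays, and LAPTM5 was highest on v-Myb replicates 2 and 3, with 6.88 and 6.96. In the macrophage list GPNMB, a glycoprotein of both macrophages and pigment cells, differed by 0.44 with a standard error of 0.29, CTSS, a protease that trims the invariant chain, by 0.26 with 0.19, and the transcription factor gene CEBPB by -0.12 with 0.08. DMA, which encodes a chain of the peptide-loading partner of MHC class II, differed by 0.25 and RFXAP, a subunit of the factor that binds MHC class II promoters, by 0.22. Of the class II chain genes BLB1, BLB2 and BLA only BLB1 had a probe set with 1 symbol, and it did not exceed 3.64. CIITA, the class II transactivator, did not exceed 3.20.

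CD3E and CD247, both chains of the T cell receptor complex, differed by -0.41 and 0.39, in opposite directions. CD3E was highest on N118D replicate 1 at 6.38, the array where CSF1R was highest, and CD247 was lowest there at 4.93. CXCR4, a chemokine receptor that neural cells also express, had levels of 9.94, 7.66 and 7.23 in v-Myb replicates and of 8.83, 8.16 and 8.58 in N118D replicates. Its difference of -0.25 had a standard error of 0.71.

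Red blood cell transcripts marked a different array. HBBR, HBA1 and HBE encode chains of haemoglobin, and on N118D replicate 2 they reached 7.30, 6.85 and 5.94, while no other array exceeded 2.87, 2.58 and 3.39. That array was not high for CSF1R (2.62) or C1QC (2.67), and it was the N118D array on which PTPRC was highest (5.78). The v-Myb arrays had PTPRC at 5.75 to 5.87 with HBBR at no more than 2.53. Of 19 epithelial probe sets that ranged over at least 0.5, 14 (73.7%) were also highest on N118D replicate 2, against 9.6% of all such probe sets. Whether blood or epithelial cells bear on the level of PTPRC was not tested. The 3 haemoglobin genes missed the minimum for testing because a single array was above 4. Among endothelial genes CD34 and VWF differed by -0.25 and -0.10, with standard errors of 0.32 and 0.13.

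LCP1 was highest on the array where most varying probe sets of the neural crest and pigment cell list were highest. Of 27 probe sets of the neural crest and pigment cell list that ranged over at least 0.5, 23 (85.2%) had their highest value on v-Myb replicate 2, against 22.1% of 8365 such probe sets in all. LCP1's own list, the pan-leukocyte one, had 16 such probe sets. Of these 8 (50%) were highest on v-Myb replicate 2, 5 on N118D replicate 1 and 3 on v-Myb replicate 3. The mean level of the 20 tested neural crest and pigment cell genes was 9.85 to 10.52 on the v-Myb arrays and 9.79 to 9.92 on the N118D arrays. The epithelial list (11 tested genes, 10 below 0) had its lowest mean level on v-Myb replicate 2, where its keratin gene KRT14 was at 8.23. The list's mean levels ranged over 8.29 to 9.70 in v-Myb and over 9.64 to 10.05 in N118D cultures. The part of crest, pigment, epithelial or blood cells in the difference of LCP1 was not tested. PMEL, a melanosome matrix gene, differed by 0.45 and MLANA, a melanosome protein gene, by 0.53, while the epithelial adhesion genes CDH1 and EPCAM differed by -1.10 and -1.29.

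The genes whose levels were most like those of LCP1 over the 6 arrays, among 2519 tested probe sets with an SD of at least 0.3, were GJA5, a connexin gene (r = 0.995), TPTE (r = 0.96) and CCDC50 (r = 0.95). GJA5 was at 11.98, 12.51 and 12.20 on the v-Myb arrays and at 11.76, 11.77 and 11.68 on the N118D arrays, and the groups did not overlap. Nothing is read from this, because GJA5 was picked for its likeness to LCP1, whose groups did not overlap. For PTPRC these genes were PLCB4, NKX3-2 and PRPS1L1 (r = 0.91, 0.90 and 0.89), and for CD74 they were GXYLT1, SUSD4 and WNK1 (r = 0.98 each). These correlations describe 6 arrays, and the highest among so many probe sets are near 1 by selection.

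IFI27L2 was the interferon gene with the widest spread, and stood lower on each v-Myb array than on any N118D array. It belongs to the ISG12 family of small membrane proteins that interferon induces in mammals. Its brighter probe set was at 6.90, 6.92 and 7.40 on the v-Myb arrays, against 8.23, 7.84 and 7.78 on the N118D arrays. The gap between the groups was 0.38, and the array nearest to it on the v-Myb side was replicate 3. The means were 7.07 ± 0.29 and 7.95 ± 0.24 (SD, n = 3 each), a difference of -0.88, or 1.83-fold lower. With each array left out in turn the difference lay between -1.04 and -0.74. The other IFI27L2 probe set stayed between 2.49 and 2.54.

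The other 3 interferon members differed little between the groups. EIF2AK2, which encodes the double-stranded RNA-activated kinase PKR that halts translation, was at 5.55, 5.54 and 5.42 on the v-Myb arrays and at 5.44, 5.34 and 5.39 on the N118D arrays. The groups overlapped by 1 array, and the difference was 0.11 with a 95% confidence interval of -0.07 to 0.30. IRF7, the factor that drives transcription of type I interferon genes and for which RefSeq also lists the name IRF3 in chicken, was at 4.76, 5.12 and 4.81 on the v-Myb arrays, against 5.04, 4.82 and 4.58 on the N118D arrays. Its difference of 0.08 (95% confidence interval -0.31 to 0.47) turned to -0.032 without v-Myb replicate 2 and to -0.036 without N118D replicate 3.

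TRIM25, a ubiquitin ligase that acts in RNA sensing in mammals, was measured by 1 of its 4 probe sets. It was at 7.80, 7.96 and 8.13 on the v-Myb arrays, against 7.98, 7.81 and 7.96 on the N118D arrays. The difference of 0.05 (95% confidence interval -0.22 to 0.32) turned to -0.036 without v-Myb replicate 3 and to -0.0063 without N118D replicate 2. Its other 3 probe sets stayed at 2.35 to 3.06. The intervals of these 3 genes leave room for differences of 0.30 to 0.47 at their upper bounds and of -0.31 to -0.07 at their lower bounds. No interval of a member is read as a test, because the members were chosen with the contrast known.

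The interferon members had no common pattern either. IFI27L2 and EIF2AK2 had the correlation farthest from 0 among their 6 pairs, a negative one (r = -0.76, rho = -0.66). It was -0.33 as deviations from the group means and 0.18 without the 2 arrays farthest from the median of IFI27L2. The other 5 pairs ran from r = -0.12 to r = 0.40. Between leukocyte and interferon members the range was -0.71 (LCP1 with IFI27L2) to 0.74 (CD74 with IFI27L2), and as deviations from the group means these were 0.17 and 0.74. Without the 2 arrays farthest from the median of CD74, its correlation with IFI27L2 was -0.25. IFI27L2 and CD74 were both highest on N118D replicate 1.

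Genes most like IFI27L2 over the arrays were RIN2, DDAH1 and BMP5 (r = 0.99, 0.98 and 0.96). BMP5, a growth factor of the BMP family, differed by -0.99, and nothing is read from this, because it was picked for its likeness to IFI27L2. No gene of the 2 interferon lists was among these 3. With 3 genes taken from 2097 that passed the SD minimum, nothing is read from that absence. For EIF2AK2 they were ZRANB3, TTLL12 and PSMG4 (r = 0.97, 0.92 and 0.92), for IRF7 OXCT1, RECK and TROVE2 (r = 0.91, 0.90 and 0.90), and for TRIM25 TNFAIP2, EXOC3L and OTX2 (r = 0.96, 0.93 and 0.92).

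Upstream in the pathway, some receptors and kinases were measured and others were not. IFNAR1 and IFNAR2, the chains of the type I interferon receptor, differed by -0.018 and 0.09, and the kinase gene JAK1 by 0.04 and the factor gene IRF1 by 0.03. The other Janus kinase genes on the list, JAK2 and TYK2, stayed under the minimum with at most 3.68 and 1.97, as did the interferon gamma receptor gene IFNGR1 with 3.55 and the kinase gene IKBKE with 2.49. Of 37 genes of interferon sensing and signalling with a probe set 24 (64.9%) were tested, near the 65.9% of all genes. Of the 24, 17 lay above 0, and the median was 0.03. None passed limma in either direction. TLR7, a sensor of single-stranded RNA, had the widest difference of the list, 0.66 with a standard error of 0.37. It was at 7.28, 8.60 and 7.72 on the v-Myb arrays and at 6.82, 7.52 and 7.29 on the N118D arrays, so the groups overlapped and v-Myb replicate 2 was highest. SOCS1, an inhibitor of Janus kinases, differed by 0.24 with a standard error of 0.14, and TLR21, a DNA sensor of birds, by -0.16 with 0.08.

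Some antiviral effector genes that interferon typically raises stayed under the minimum, and others did not. NMI, IFI35 and ADAR had mean levels of 9.33, 8.44 and 8.11 across v-Myb arrays and of 9.42, 8.32 and 8.01 across N118D arrays. MX1, RSAD2, CMPK2, IFI6 and EPSTI1 did not exceed 2.68 on any array, and IFIT5 and OASL did not exceed 3.50 and 3.63. The RNA sensor genes DHX58 and TLR3 stayed at or under 2.02 and 2.86, and IFIH1 was at 3.88 to 4.31. Of 41 effector genes with a probe set 21 (51.2%) were tested, against 65.9% of all genes. Of the 21, 8 lay above and 13 below 0, and the median was -0.03 (mean -0.06). None passed limma in either direction. Over all leukocyte and interferon lists without the members, 69 genes were tested and 0 passed limma, where 0% of all probe sets did. Of the 69, 0 had an unadjusted p under 0.05 in limma, against 315 of all 16526 tested probe sets. With so small a share over all, nothing is read from this count.

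Of the other effector genes, LY6E, a membrane protein that affects virus entry, differed by -0.42 with a standard error of 0.28. The gene annotated as LOC770612, for which RefSeq lists IFITM3, an inhibitor of virus fusion, was bright, at 12.03, 12.38 and 12.04 on the v-Myb arrays and at 12.00, 11.96 and 11.87 on the N118D arrays. The groups did not overlap, and the difference was 0.21 with a standard error of 0.12. ZC3HAV1, an antiviral zinc finger protein that binds CpG-rich RNA, differed by -0.11 with a standard error of 0.09. The other tested effector genes had differences no lower than that of LY6E, and IFI27L2 lay below them. Nothing is read from this, because IFI27L2 was chosen with the contrast known.

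**Figure D4:**
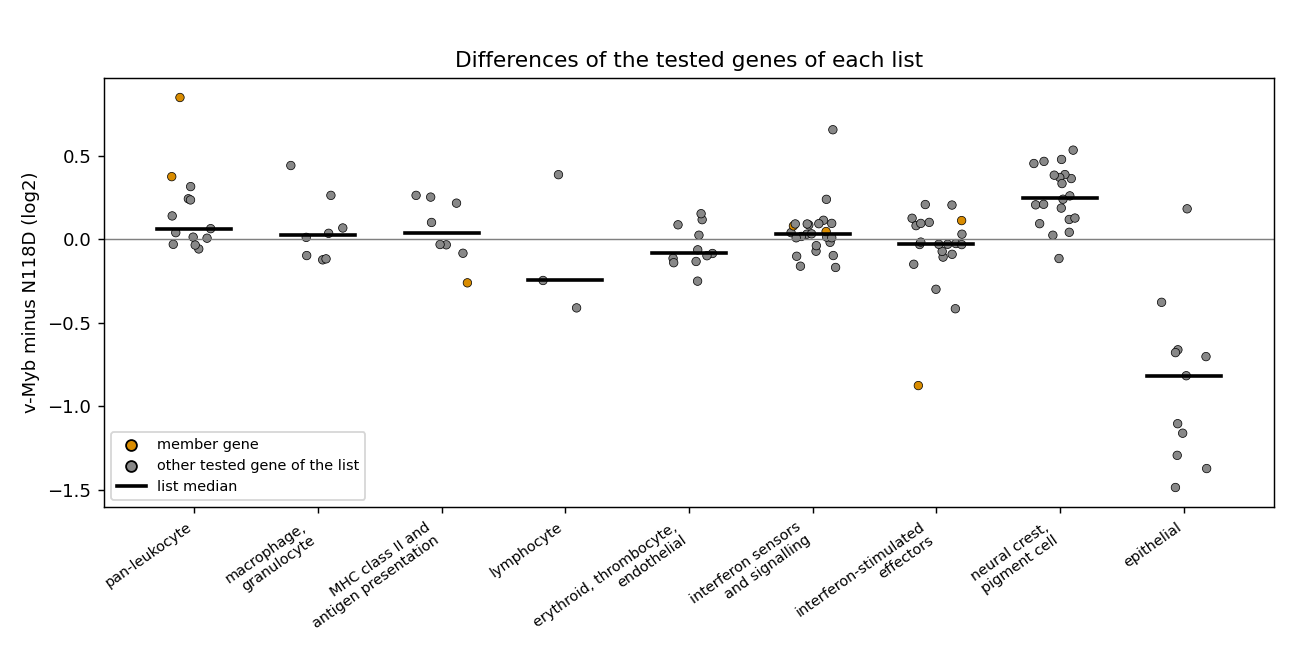
Difference v-Myb minus N118D (log2) of each tested gene, by list, 1 probe set a gene, with members in orange and the black bar at the list median. Leukocyte and interferon list medians lie near 0 except for the 3 lymphocyte genes. The median of the neural crest and pigment cell list lies above 0 and that of the epithelial list below. LCP1 (0.85) is highest and IFI27L2 (-0.88) lowest among the leukocyte and interferon lists, and both were chosen with the contrast known.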

How the data were processed

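Total RNA from 6 cultures, 100 ng each, was labelled by in vitro transcription and hybridised to chicken arrays, per the labels' protocols. Each probe set has a single deposited log2 value on every array. Software named per the submitters' processing notes is GCRMA and Partek 6.4, and the role of Partek is not given in the sources used here. GCRMA subtracts background by probe sequence, so dim probe sets crowd near a floor and their differences shrink. The log2 scale was read from the values, none below 0. Scanner files were not used here.

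After removal of control probe sets, 16526 of 38439 with a log2 level of at least 4 on at least 3 arrays were fitted with limma 3.58.1 in R 4.3.3 (lmFit, eBayes, group as the only term, two-sided, Benjamini-Hochberg over all of them, threshold 0.05). SE and 95% intervals come from the moderated fit. The fit was tested on simulated data with independent noise and planted differences larger than that of any member. Its power for differences of the size reported here was not examined. Symbols are those of the platform's own, possibly outdated, annotation. The 177 probe sets with several symbols and the 11094 without any were not named. Each listed gene was represented by its brightest tested probe set, and 10 of 294 listed symbols were matched through RefSeq synonyms. Some of these matches may join different genes, such as CD80 to CD88, ALAS2 to ALAS1 and IRF10 to IRF9, and the list counts include them.

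The members and the 9 gene lists were chosen with earlier results of these data known. Named genes were the members, up to 3 genes per list with the smallest p, those with an absolute log2 difference of at least 0.58, and the 3 genes most correlated with each member. Genes named beyond that rule were chosen after their values were seen. Correlations between members are descriptions over 6 arrays, and no p is given for them. Alternatives were other filters, quantile normalization, median centring, moderation with trend and robust options, array weights, a block on replicate number, averaging the probe sets of a gene, and omission of each array. The number of arrays limits the precision.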

Additional observations from a re-analysis of the deposited data

How the results depend on the processing

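No probe set passed an adjusted p of 0.05 in limma in any of 13 alternatives, with smallest adjusted p from 0.0553 (without v-Myb replicate 1) to 1 and 176 to 1206 probe sets at an unadjusted p under 0.05, and no gene of the 6 leukocyte and interferon lists passed in any of them. The replicate number as a block left 0 calls, with 666 at an unadjusted p under 0.05 in limma, against 315 without it. List medians could not change with this block, because each number has 1 array in each group. Deviations of same-numbered arrays had correlations of 0.40, 0.45 and -0.05 for numbers 1, 2 and 3. Those of differently numbered arrays ran from -0.57 to 0.42, the highest for v-Myb replicate 3 with N118D replicate 2. These values do not settle whether the numbers pair the cultures, and the main fit used no block. Quantile normalization and median centring left the sign of each member's difference as reported.

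The pan-leukocyte median was 0.20 with array weights. With 1 array left out it ran from -0.0016 (without v-Myb replicate 2) to 0.15, the macrophage median from -0.026 (without v-Myb replicate 3) to 0.084, the sensor median from -0.0053 (without N118D replicate 3) to 0.072 and the antigen presentation median from 0.027 to 0.10. The macrophage median was -0.035 with probe sets averaged per gene and -0.0020 without a filter, and the antigen presentation median -0.033 with a minimum level of 6. The lymphocyte median was -0.014 without a filter and ran from -0.43 to 0.28 with 1 array left out. The median of the interferon-stimulated effectors was 0.012 with array weights and ran from -0.041 to 0.046 with 1 array left out. Without the 2 arrays farthest from the median of the first gene, correlations turned to 0.94 for CD74 with PTPRC, 0.51 for CD74 with LCP1, 0.18 for IFI27L2 with EIF2AK2, 0.55 for IFI27L2 with IRF7, -0.48 for IFI27L2 with TRIM25 and 0.78 for EIF2AK2 with TRIM25. That of IFI27L2 with IRF7 was 0.28 as deviations from the group means. The cause of these shifts was not tested. Leaving out 1 array turned the differences of IRF7 and TRIM25, to as low as -0.036 for each. The background correction of the arrays was not varied here, and probe sets near 2 to 3 give no level to compare.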
